A study of Mus musculus with 8 samples.

Results

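The genes examined were the 92 genes of the deposited expression matrices whose symbols begin with Kcn, the root for potassium channel subunits, out of 32285 gene symbols. Members were taken by symbol alone, without 4 symbols set aside and without antisense symbols ending in os. They comprised 90 protein-coding genes and 2 antisense RNAs of Kcnmb4, whose symbols end in os1 and os2. The levels were measured in nuclei of the hippocampus of male wild-type C57BL/6J pups at postnatal day 21 (P21). Their dams received a folic acid (FA) diet of 2 mg/kg (MF) or 20 mg/kg (HF) from 2 weeks before mating until the end of lactation, starting at 8 weeks of age as the labels give it. Each diet had 2 libraries, here called MF1, MF2, HF1 and HF2, and in each library RNA (GEX) and open chromatin (ATAC) were read from shared nuclei. The study describes the libraries of a diet as biological replicates. The number of pups or litters in each is not given in the sources used here, so p-values measure the spread between libraries, which may be technical.

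Potassium channels let K+ leave the cell, and they set the resting potential, repolarize the action potential and limit how often a neuron can fire. The pore is formed by voltage-gated subunits (Kcna, Kcnb, Kcnc, Kcnd, Kcnq and Kcnh), calcium- or sodium-activated subunits (Kcnma1, Kcnn, Kcnt), inward rectifiers (Kcnj) or two-pore subunits that carry leak current (Kcnk). Auxiliary and silent subunits (Kcnab, Kcnip, Kcnmb, Kcng, Kcns, Kcnv) form no channel alone but change the gating or the location of the pore they join. In the hippocampus the subunits are known to differ between pyramidal cells, granule cells, fast-spiking interneurons and glia.

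The deposited matrices held 14297 nuclei, and 11518 were kept (MF1 2899, MF2 2249, HF1 3473, HF2 2897), with a median of 6117 to 7053 unique transcripts (UMIs) per nucleus in each library. Pairs of libraries shared 13 to 27 cell barcodes. Nuclei were clustered with 261 genes left out, and a cluster was named only from at least 3 markers of its type. All Kcn genes together with 30 potassium channel partner genes made up 129 of these. The others included ribosomal protein, mitochondrial, hemoglobin and sex-linked genes, Ttr and Ptgds. Where left-out genes are said to be returned to the clustering, all 261 were returned together. The types were rebuilt here, so their borders can differ from those of the study. They were CA1-like (538 nuclei) and CA3-like (503) pyramidal neurons, mature (DG-M, 1883) and immature (DG-i, 961) granule neurons, interneurons (INH, 533), astrocytes (AST, 1285), oligodendrocyte progenitors (OPC, 575), oligodendrocytes (ODC, 629) and microglia (MG, 714). A further sub-cluster of 503 excitatory nuclei held 5 CA1 markers but also the CA3 marker Cpne7 among its leading genes and stayed unnamed. Clusters mixed between classes (1129 nuclei) and clusters without a named class (1400 nuclei) entered no contrast. Unnamed sub-clusters stayed in their class, with 36 and 69 nuclei in INH and 503 and 204 among all excitatory nuclei. They entered only the contrasts of those classes as a whole. UMIs were summed per library and type, and levels are given as counts per 1000000 UMIs (CPM), always in the order MF1, MF2, HF1 and HF2. CPM is not divided by gene length, so levels are compared between types and not between genes.

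The members held 1.89% of all UMIs of the kept nuclei. UMIs were spread unevenly over the members. Kcnip4, Kcnd2, Kcnq5, Kcnma1 and Kcnh7 together held 70.3% of the member UMIs, 16 members had at least 10000 UMIs, 25 had fewer than 100, and Kcnk15, Kcnk16 and Kcnj1 had none. The summed member level was highest in CA1 (30620, 29910, 28710 and 34520 CPM) and high in DG-M (22500 ± 1932 CPM, SD, n = 4 libraries) and CA3 (21390 ± 1633 CPM). It was lower in INH (15280 ± 1932 CPM), OPC (10930 ± 966 CPM) and DG-i (8664 ± 961 CPM), and lowest in AST (4649 ± 787 CPM), MG (1892 ± 932 CPM) and ODC (1390 ± 149 CPM). No CA1 library overlapped a library of another type in this sum, whereas DG-M overlapped CA3, and MG overlapped ODC. These sums and the counts of highest types below hold for the CA1 border used here. Kcnip4 and Kcnd2 were lower with a wider CA1, as given below.

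A single type held the highest level of most members in every library. Of 64 members with at least 100 UMIs over the 9 types, 49 (76.6%) had the same highest type in all 4 libraries. The share was 43.5% of the 14315 genes over the same minimum, which were not matched to the members for abundance. In 40 members (62.5%) no library of the highest type overlapped the next type, against 32.9% of those genes. DG-M was highest for 14 members (21.9%, against 6.68% of those genes), INH for 10 (15.6%, 7.73%), CA1 for 9 (14.1%, 5.11%) and CA3 for 7 (10.9%, 4.28%). OPC was highest for 6 (9.38%, 7.63%), AST for 6 (9.38%, 12.1%), MG for 5 (7.81%, 30.2%), DG-i for 4 (6.25%, 15.1%) and ODC for 3 (4.69%, 11.2%).

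**Figure D1:**
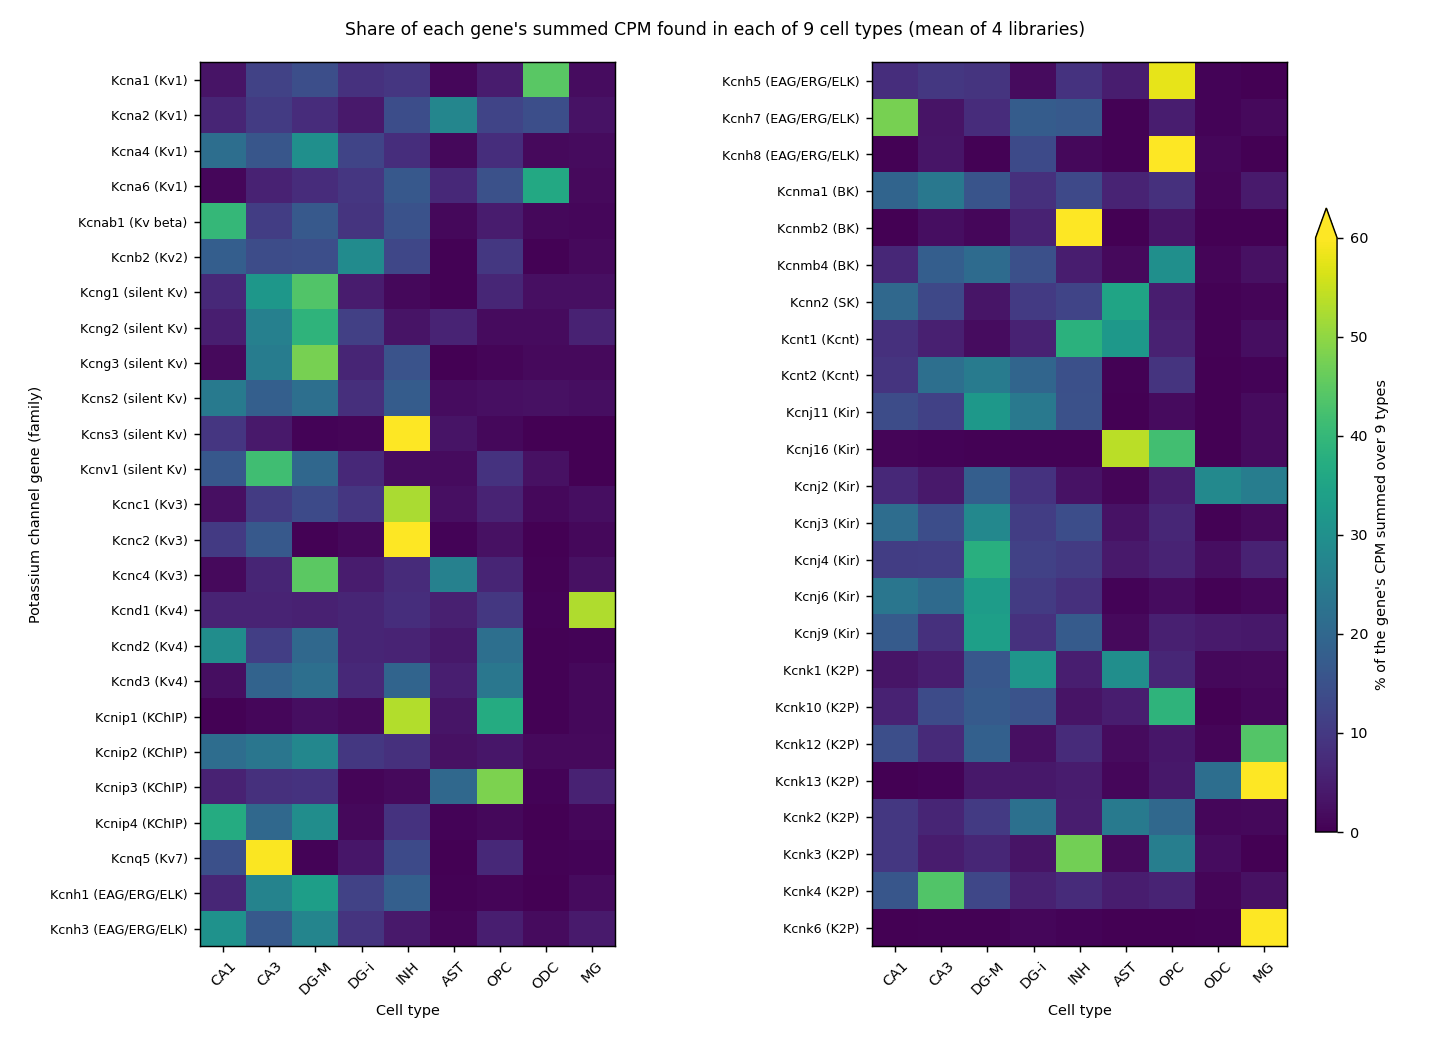
Each row is 1 of 49 members named in the text with at least 100 UMIs, with its family in brackets, each column is a cell type, and the colour gives the share of the gene's summed CPM found in that type (mean of 4 libraries, colour scale ending at 60%). Kcnk6 had 97.2% of its summed CPM in MG, Kcnmb2 87.3% in INH, Kcns3 80.4% in INH and Kcnh8 80.01% in OPC.

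Other abundant members were spread over several types. The BK pore Kcnma1 was at 1422, 1558, 1464 and 1664 CPM in CA3, 1188, 1233, 1158 and 1312 CPM in CA1 and 793, 997, 689 and 910.5 CPM in INH, and it reached 216, 209.8, 308 and 394 CPM in MG. The MG levels were 17.4 to 31.6% of the mean of CA1, CA3, DG-M and INH, and the part of neuronal RNA in them was not tested. The difference between CA1 and CA3 did not pass the test (log2 fold change -0.21 ± 0.1 SE, edgeR adjusted p = 0.0919). Kcnj3, a subunit of the rectifiers opened by G proteins, was at 781, 1010, 1100 and 981 CPM in DG-M, 599.6, 828, 772 and 776 CPM in CA1 and 11.4, 4.16, 17 and 25.5 CPM in ODC. DG-M and CA1 overlapped, and ODC was far below them. Kcnk2, a leak channel gated by stretch and lipids, was at 151, 238, 226 and 245 CPM in AST, 185, 206, 203 and 185 CPM in DG-i and 32.9, 53.1, 40.8 and 38.3 CPM in INH. Its astrocyte and DG-i libraries overlapped and lay above those of the mature neuron types.

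The start regions of 5 members are printed because a peak overlapped each printed window in all 4 libraries and because their RNA was concentrated in interneurons (Kcnmb2, Kcnc2), OPC (Kcnh8), astrocytes and OPC (Kcnj16) or microglia and oligodendrocytes (Kcnk13). Where a gene had several RefSeq starts, the one with peaks in the most libraries and then the most peak counts was taken. The windows run from 250 bases before to 50 bases after a RefSeq start in GRCm38.p6, all on the + strand, and lie at chr3:31902453-31902752 (Kcnmb2), chr10:112269767-112270066 (Kcnc2), chr17:52602459-52602758 (Kcnh8), chr11:110997237-110997536 (Kcnj16) and chr12:99964249-99964548 (Kcnk13). Capitals mark a GC box (GGGCGG on either strand) or an E-box (CANNTG), the only motifs found of the 3 searched.
Kcnmb2: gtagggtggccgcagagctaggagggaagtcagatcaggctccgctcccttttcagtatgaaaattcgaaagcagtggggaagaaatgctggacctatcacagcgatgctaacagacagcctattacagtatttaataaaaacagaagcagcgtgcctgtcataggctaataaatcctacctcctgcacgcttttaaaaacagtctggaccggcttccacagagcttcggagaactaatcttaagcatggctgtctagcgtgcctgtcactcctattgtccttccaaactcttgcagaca
Kcnc2: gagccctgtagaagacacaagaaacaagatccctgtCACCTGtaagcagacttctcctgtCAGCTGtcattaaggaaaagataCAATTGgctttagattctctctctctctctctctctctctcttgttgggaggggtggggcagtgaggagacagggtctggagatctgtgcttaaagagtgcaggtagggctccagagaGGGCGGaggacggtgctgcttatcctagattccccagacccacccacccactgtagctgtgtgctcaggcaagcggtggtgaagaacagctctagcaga
Kcnh8: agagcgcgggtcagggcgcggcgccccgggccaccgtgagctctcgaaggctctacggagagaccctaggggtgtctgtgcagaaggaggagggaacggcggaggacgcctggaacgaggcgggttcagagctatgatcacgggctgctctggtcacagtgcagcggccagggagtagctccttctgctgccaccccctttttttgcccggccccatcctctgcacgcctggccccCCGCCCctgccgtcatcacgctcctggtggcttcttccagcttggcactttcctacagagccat
Kcnj16: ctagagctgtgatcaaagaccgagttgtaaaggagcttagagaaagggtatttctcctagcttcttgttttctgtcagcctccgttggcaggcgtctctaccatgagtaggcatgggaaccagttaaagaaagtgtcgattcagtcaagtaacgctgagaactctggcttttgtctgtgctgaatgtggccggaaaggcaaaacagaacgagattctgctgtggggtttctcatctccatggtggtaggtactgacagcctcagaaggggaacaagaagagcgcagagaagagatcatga
Kcnk13: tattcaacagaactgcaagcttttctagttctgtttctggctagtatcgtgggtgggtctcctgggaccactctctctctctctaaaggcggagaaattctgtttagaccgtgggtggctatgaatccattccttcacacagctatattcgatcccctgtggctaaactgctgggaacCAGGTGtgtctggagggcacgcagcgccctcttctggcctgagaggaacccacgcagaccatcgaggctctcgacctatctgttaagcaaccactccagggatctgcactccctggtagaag
Kcnc2 held 3 E-boxes and 1 GC box, Kcnh8 1 GC box, Kcnk13 1 E-box, and the Kcnmb2 and Kcnj16 windows held neither. The Kcnh8 window had 66.0% GC and 21 CpG, against 47.7% and 9 CpG for Kcnmb2. Over 93 windows of the 68 members found in the RefSeq table, 48.4% held a GC box, 73.1% an E-box and 5.38% a TATA box (TATAAA). The shares over all 32851 windows were 35.7%, 72.3% and 13.6%, and a match of letters does not show a bound site.

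Interneurons were compared with CA1, CA3 and DG-M by the mean of their log levels. A fold from this contrast can therefore exceed the ratio of mean CPM. They carried more RNA of Kcnc1 and Kcnc2, pore subunits of the fast Kv3 channels of fast-spiking cells, and of the auxiliary subunits Kcnmb2, Kcnip1 and Kcns3, and less of several silent subunits. Of 58 members tested, 28 passed the threshold (edgeR adjusted p under 0.05 and at least 2-fold), 11 higher and 17 lower, against 18.8% of all 13067 genes tested (11.5% higher, 7.3% lower). The median log2 fold change was -0.47 over the members and 0.02 over all genes.

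Kcnmb2, which makes BK channels inactivate, stood at 596, 991, 770.1 and 903 CPM in INH, 28.1, 24.6, 15.8 and 12.9 CPM in CA3 and 7.38, 10.5, 8.38 and 12.5 CPM in DG-M. It had 1 UMI in CA1. Every interneuron library was above every principal-neuron library (log2 fold change 7.73 ± 0.12 SE, edgeR adjusted p = 3.74e-52), and the value was 6.7 with finer clusters, where CA1 gained nuclei. Kcnc2 was at 2441, 2770, 2189 and 3471 CPM in INH, at 700, 713, 570.3 and 761 CPM in CA3 and at 9.22, 12.7, 11.2 and 14.5 CPM in DG-M (log2 fold change 4.06 ± 0.08 SE, edgeR adjusted p = 1.3e-47). Its groups did not overlap, and CA3 stood between INH and DG-M. Kcns3, a silent partner of Kv2 pores, was at 86.8, 109, 119.5 and 77.4 CPM in INH and at or below 12.2 CPM in each principal-neuron library (log2 fold change 4.59 ± 0.14 SE, edgeR adjusted p = 4.15e-34). Kcnip1, a calcium sensor bound to Kv4 pores, was at 331, 336, 337 and 339 CPM in INH and 9.22, 16.8, 16.6 and 12.3 CPM in DG-M (log2 fold change 5.75 ± 0.12 SE, edgeR adjusted p = 5.13e-46). Kcnip1 was nearly level over the 4 interneuron libraries. With finer clusters Kcnip1 moved to 4.97.

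Lower in interneurons were Kcng1 and Kcng2, silent partners of Kv2 pores, Kcnv1, another silent subunit, Kcnh3, an ELK-type pore, and Kcnip3, a calcium sensor that also acts in the nucleus. Kcnv1 was at 3.102, 0.781, 1.38 and 0.723 CPM in INH against 35.2, 30.2, 32.8 and 26.6 CPM in CA3 (log2 fold change -3.57 ± 0.39 SE, edgeR adjusted p = 1.28e-11). Kcnip3 was at 11.8, 10.2, 13.1 and 11.6 CPM in INH against 73.6, 62.7, 76.7 and 70.9 CPM in DG-M (log2 fold change -2.45 ± 0.16 SE, edgeR adjusted p = 6.53e-21). The interneuron libraries lay below all those of CA3 for Kcnv1 and below all those of DG-M for Kcnip3. Log2 fold changes were -2.44 ± 0.23 (SE) for Kcng2, -2.63 ± 0.28 for Kcnh3 and -4.0 ± 0.46 for Kcng1, which was listed at 0 in INH of MF1 and MF2. The Kcng1 value was -5.43 without HF2 and -4.59 with finer clusters.

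**Figure D2:**
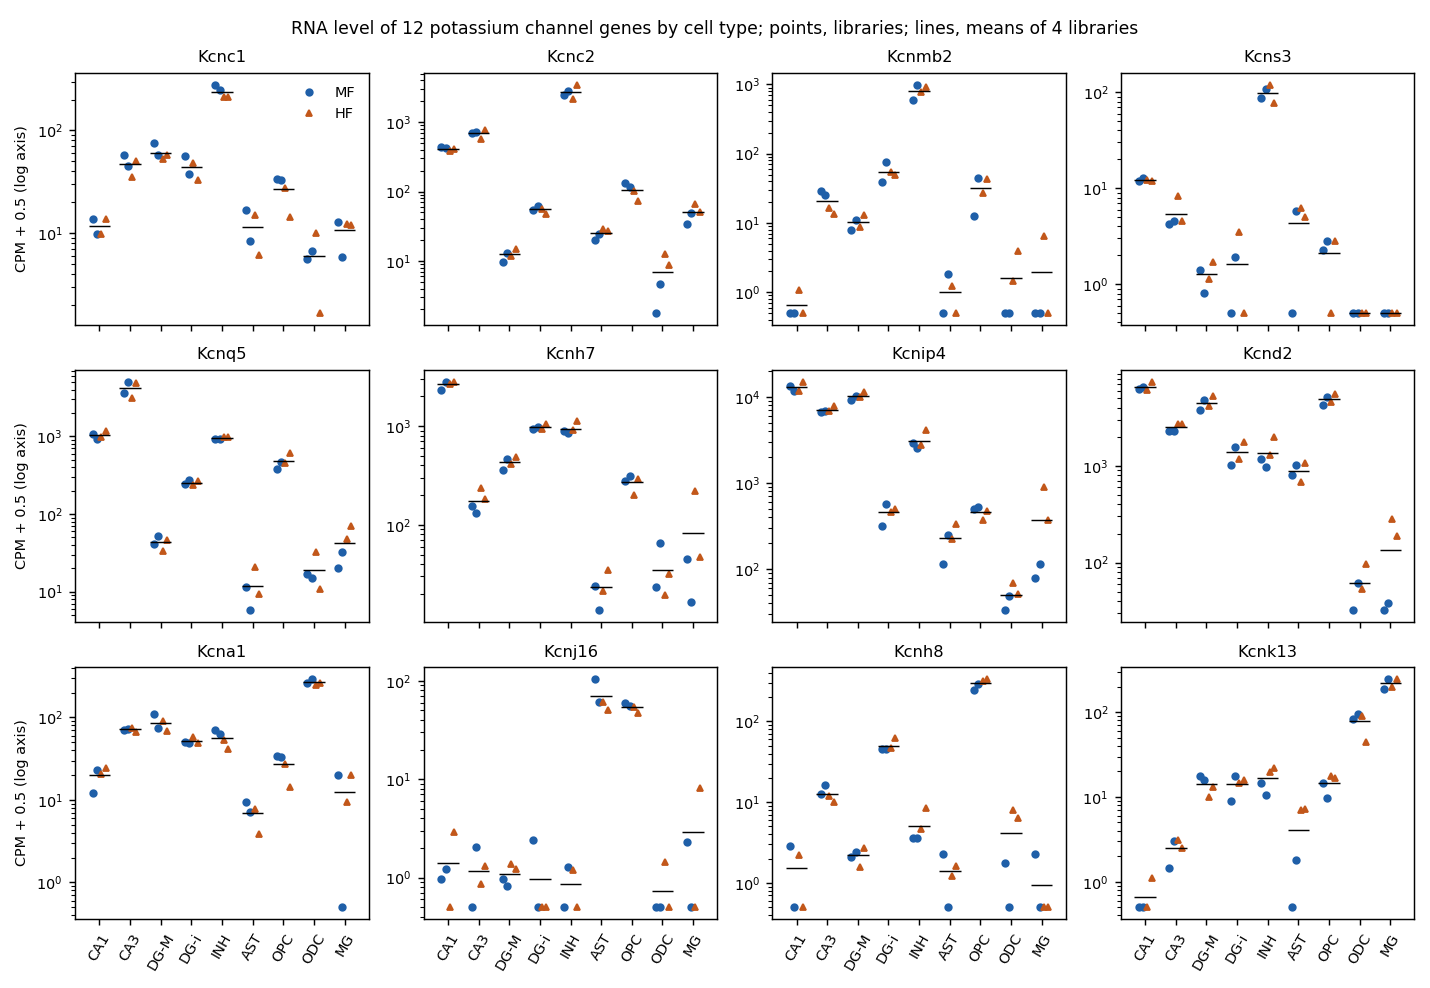
Each panel is 1 gene, the horizontal axis gives the 9 cell types and the vertical log axis CPM + 0.5, points are libraries (circles MF, triangles HF) and lines are means of 4 libraries. Kcnc2 stood at 2189 to 3471 CPM in INH and at 9.22 to 14.5 CPM in DG-M, and Kcnq5 at 3128 to 5086 CPM in CA3 and 32.7 to 52.3 CPM in DG-M.

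Within interneurons, cells of the Lhx6 lineage (253 nuclei), which include parvalbumin and somatostatin cells, were compared with the Adarb2 lineage (175 nuclei). Of 37 members tested, 18 passed (8 higher, 10 lower in Lhx6), against 8.85% of all genes (4.34% higher, 4.5% lower). Kcns3 was at 83.8, 119, 151 and 97.03 CPM in Lhx6 and 15.6, 36.5, 18.8 and 23.96 CPM in Adarb2 (log2 fold change 2.21 ± 0.22 SE, edgeR adjusted p = 1.23e-06). Kcnc1 was at 373, 325, 295 and 298 CPM and 158, 140.3, 132 and 113 CPM (log2 fold change 1.19 ± 0.13 SE, edgeR adjusted p = 1.91e-06). Both were higher in every Lhx6 library. Kcnip2, a calcium sensor of Kv4 channels, and Kcnma1, the BK pore, were also higher (log2 fold changes 2.46 ± 0.36 and 1.3 ± 0.11, SE). Kcnk3, a leak channel, had 1.43 ± 0.37 but missed the threshold with DESeq2 (adjusted p = 0.107), and with edgeR without HF1 (1.37, adjusted p = 0.0534) or without HF2 (1.11, adjusted p = 0.0617).

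The M-current subunit Kcnq5 ran the other way, at 301, 156, 232 and 282 CPM in Lhx6 and 2067, 2323, 2059 and 1682 CPM in Adarb2 (log2 fold change -3.14 ± 0.18 SE, edgeR adjusted p = 1.59e-09). The sodium-activated Kcnt2 was at 133, 129, 189.9 and 208 CPM and 751, 861, 767 and 795 CPM (log2 fold change -2.34 ± 0.15 SE, edgeR adjusted p = 4.8e-09). The small-conductance calcium-activated Kcnn2 was at 96.7, 165, 107 and 159.8 CPM and 600.1, 584, 688 and 503 CPM (log2 fold change -2.25 ± 0.16 SE, edgeR adjusted p = 2.73e-08). For these 3 genes no Lhx6 library reached an Adarb2 library. Kcnip1 (-1.37 ± 0.12, SE) and Kcnh1, an EAG-type pore (-1.52 ± 0.19), were lower in Lhx6 too.

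CA3 and DG-M differed most in Kcnq5 and Kcnc2, which were also higher in CA1 than in mature granule neurons. CA3 against DG-M called 19 of 58 members, 9 higher and 10 lower, against 14.3% of all genes (8.79% higher, 5.56% lower). Kcnq5 was at 3659, 5086, 3128 and 4871 CPM in CA3, 1071, 917, 976 and 1165 CPM in CA1 and 40.4, 52.3, 32.7 and 45.3 CPM in DG-M (log2 fold change 6.73 ± 0.2 SE, edgeR adjusted p = 4.15e-37 for CA3 over DG-M). The 3 types did not overlap. Kcnc2 gave 5.95 ± 0.14 (SE) in the same contrast. Kcnn2 was at 333, 382, 416 and 401 CPM in CA3 and 99.9, 104, 87.5 and 108 CPM in DG-M (log2 fold change 2.06 ± 0.12 SE, edgeR adjusted p = 2.71e-22). Kcnk4, a mechanosensitive leak channel, was at 17.4, 10.2, 11.8 and 10.9 CPM in CA3 and 3.23, 3.17, 4.51 and 3.86 CPM in DG-M (log2 fold change 1.84 ± 0.29 SE, edgeR adjusted p = 4.28e-07). Both genes were higher in each CA3 library, and so was Kcnh8, an ELK-type pore (2.91 ± 0.29).

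Mature granule neurons had more of the Kv3 pore Kcnc4, at 50.97, 38.7, 40.4 and 39.5 CPM against 7.97, 5.63, 4.42 and 5.24 CPM in CA3 (log2 fold change -2.76 ± 0.18 SE, edgeR adjusted p = 2.63e-20). The inward rectifiers Kcnj2, Kcnj4 and Kcnj9 were also lower in CA3 than in DG-M (log2 fold changes -2.02 ± 0.32, -1.64 ± 0.2 and -1.91 ± 0.15, SE). Kcnj9 encodes a subunit of the channels opened by G proteins, and stood at 9.38, 11.8, 8.84 and 11.7 CPM in CA3 and 46.1, 47.8, 42.5 and 33.8 CPM in DG-M. The leak channel Kcnk13 was lower in CA3 (-2.57 ± 0.33), and -3.33 without nuclei over the doublet score.

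CA1 against DG-M called 30 of 58 members (8 higher, 22 lower), against 16.5% of all genes (7.87% higher, 8.67% lower). CA1 against CA3 called 29 (7 higher, 22 lower), against 11.9% (3.98% higher, 7.93% lower). Kcnh7, an ERG-type pore, was at 2341, 2810, 2696 and 2824 CPM in CA1, 356, 460.1, 414 and 486 CPM in DG-M and 156, 130, 236 and 182 CPM in CA3. CA1 was far above the others in every library (log2 fold change 4.01 ± 0.16 SE, edgeR adjusted p = 1.67e-30 over CA3, and 2.86 ± 0.14 over DG-M). Kcnab1, a beta subunit that inactivates Kv1 channels, was at 946, 915, 759 and 972 CPM in CA1 and 187, 227, 280.2 and 285 CPM in CA3 (log2 fold change 1.98 ± 0.11 SE, edgeR adjusted p = 4.27e-24). Kcnd2, the main pore of the dendritic A-type current, was at 6236, 6558, 6128 and 7448 CPM in CA1 and 2321, 2288, 2690 and 2748 CPM in CA3 (log2 fold change 1.49 ± 0.21 SE, edgeR adjusted p = 3.06e-08). Neither gene overlapped between the pyramidal types. Over DG-M, CA1 was also higher for Kcnc2 (5.34 ± 0.14, SE), Kcnq5 (4.83 ± 0.18), Kcnn2 (2.79 ± 0.12) and the sodium-activated Kcnt1 (2.21 ± 0.35). Over CA3 it was higher for Kcns3 (1.31 ± 0.27) and Kcnj9 (1.16 ± 0.19, and 0.88 and under 2-fold without HF1).

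The levels of members low in CA1, and of some high in CA1, depended on where the CA1 border was drawn. Kcnd3, an A-type pore, was at 20.7, 23.03, 39.3 and 32.1 CPM in CA1, 208, 249, 219 and 266 CPM in CA3 and 231, 286, 250.4 and 322 CPM in DG-M (log2 fold change -3.01 ± 0.12 SE, edgeR adjusted p = 5.73e-30 over DG-M, and -2.92 ± 0.13 over CA3). With finer clusters 897 nuclei were named CA1, and Kcnd3 was then at 113, 115, 108 and 156 CPM in CA1. All libraries of the wider CA1 stood above those of the narrower one, and the log2 fold changes shrank to -1.0 and -0.89, the latter under 2-fold. With the left-out genes returned both were under 2-fold (-0.98 and -0.88). Kcnip4 was at 10730, 9192, 9398 and 11020 CPM in the wider CA1, overlapping DG-M of the main clusters. Kcnd2 was at 4963, 5105, 4932 and 5630 CPM there, overlapping OPC of the main clusters. Kcnc4, Kcng3, Kcnk13 and Kcnmb2 were -4.6, -4.68, -5.74 and -5.23 against DG-M with the narrower CA1. They were -2.45, -2.3, -2.56 and -2.0 with the wider one. The narrower CA1 held 1 UMI of Kcnmb2 and 1 of Kcnk13 among 6894154, so DG-M over CA1 came to 66.8 (exact Poisson 95% interval 11.99 to 2638) for Kcnmb2 and 94.9 (exact Poisson 95% interval 17.03 to 3748) for Kcnk13, intervals that cover counting error only. These fitted values also rested on the library with that UMI, moving to -6.76 for Kcnmb2 without HF1 and to -7.33 for Kcnk13 without HF2.

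Against CA3, Kcnmb2 changed from -6.37 to -3.3 with the wider CA1 and to -7.95 without HF1, and Kcng3 from -3.89 to -1.53. Kcna6, an axonal Kv1 pore, changed from -2.48 to -0.57 and was no longer called. Kcnh8 was -3.18, and -4.04 without MF1. With the wider CA1, 23 members were called against DG-M (all genes 15%) and 22 against CA3 (8.24%).

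Of 58 members tested, 29 were lower and 6 higher in immature than in mature granule neurons, 35 in all, against 19.8% of all genes (9.98% higher, 9.86% lower). The median log2 fold change was -1.1 over the members and 0.01 over all genes. Kcnip4, the calcium sensor with the most UMIs of all members, was at 319, 577, 467 and 499 CPM in DG-i and 9282, 10280, 10060 and 11450 CPM in DG-M (log2 fold change -4.73 ± 0.31 SE, edgeR adjusted p = 2.47e-20). No DG-i library came near a DG-M library, and the difference was -6.96 with finer clusters, which left 629 nuclei in DG-i, and -5.63 with the left-out genes returned to the clustering. Its pore partner Kcnd2 was at 1030, 1564, 1168 and 1783 CPM and 3832, 4786, 4185 and 5342 CPM (log2 fold change -1.98 ± 0.22 SE, edgeR adjusted p = 9.48e-12). Lower too were Kcnip3 (-3.44 ± 0.21, SE, and -4.32 without HF1), Kcnc4 (-3.52 ± 0.27), Kcng1 (-3.43 ± 0.37, and -4.1 with the left-out genes returned) and the two-pore subunit Kcnk12 (-3.29 ± 0.34, and -4.25 with finer clusters).

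The 6 members higher in DG-i included Kcnh8, at 44.6, 45.7, 46 and 62.6 CPM in DG-i and 1.61, 1.901, 1.07 and 2.17 CPM in DG-M (log2 fold change 4.57 ± 0.26 SE, edgeR adjusted p = 9.32e-23, and 5.39 with finer clusters). Kcnq5 was at 239.9, 272, 237 and 263 CPM in DG-i (log2 fold change 2.33 ± 0.18 SE, edgeR adjusted p = 5.75e-17). Both were higher in each DG-i library, and so were Kcnmb2 (2.2 ± 0.21), Kcnc2 (1.97 ± 0.21) and Kcnn2 (1.35 ± 0.13). Kcnb2, a Kv2 pore, was highest in DG-i of the 9 types, at 1139, 1499, 1353 and 1450 CPM against 616, 633, 693 and 771 CPM in DG-M.

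Glia were compared in the same way, with the mean of the log levels of CA1, CA3, DG-M and INH. Percentages, detection limits and ratios of neurons to glia given below use the mean CPM of these neurons instead. The glial sums held RNA of 8 genes abundant in neurons, such as Snap25 and Syt1. Their median level relative to neurons was 8.66 to 12.7% in AST libraries, 32.7 to 38.8% in OPC, 5.52 to 6.99% in ODC and 9.61 to 19.7% in MG. The 8 genes differed widely, from a lowest of 3.31 to 7.29% to a highest of 80.8 to 90.9% in OPC libraries, and from 0.988 to 2.04% to 59.6 to 83.9% in AST. The medians are therefore not a share of carried-over RNA, and the part of neuronal RNA in the glial levels was not tested.

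Astrocytes differed in 48 of 58 members, 10 higher and 38 lower, against 37.1% of all genes (18.8% higher, 18.3% lower). The median log2 fold change was -2.24 over the members and -0.01 over all genes. Kcnj16, an inward rectifier subunit that joins other inward rectifiers, was at 104, 60.4, 60.9 and 50.3 CPM in AST and at most 2.42 CPM in any library of the 4 neuron types (log2 fold change 6.51 ± 0.26 SE, edgeR adjusted p = 1.38e-31). OPC held a similar level, 59.4, 55.2, 54.05 and 46.6 CPM, and the AST and OPC libraries overlapped. Kcnk1, a two-pore channel, was at 272, 219, 242 and 230.1 CPM in AST and 29.7, 26.6, 30.1 and 26.6 CPM in CA1 (log2 fold change 2.15 ± 0.09 SE, edgeR adjusted p = 9.71e-31). DG-i was at 270.3, 262, 268 and 223 CPM and overlapped astrocytes. Kcnn2 was at 845, 1198, 685 and 1396 CPM in AST, above each library of CA1 (608, 651, 517 and 602 CPM). Kcnip3 and Kcnt1 were higher too (1.9 ± 0.1 and 1.91 ± 0.21, SE).

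Among the members that were low in astrocytes, Kcnb2 was at 16.2, 6.57, 13.6 and 21.2 CPM (log2 fold change -5.71 ± 0.21 SE, edgeR adjusted p = 7.35e-33) and Kcnt2 at 3.597, 2.63, 9.32 and 17.9 CPM (log2 fold change -5.7 ± 0.17 SE, edgeR adjusted p = 1.87e-37). Kcnq5 and Kcnh1 had log2 fold changes of -5.8 ± 0.24 and -5.69 ± 0.28, and -6.48 and -6.39 without HF1. Kcnt2 was -4.83 with the left-out genes returned to the clustering. Kcng3 had no UMI in astrocytes and was at least 13.4-fold lower than in neurons, taking 3 counts over the group as the limit of detection.

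Oligodendrocyte progenitors kept more member RNA than the other glia, and 34 of 58 members differed from neurons, 10 higher and 24 lower, against 26% of all genes (14% higher, 11.9% lower). Kcnh8 was at 245, 294, 313 and 338 CPM in OPC and at most 15.9 CPM in any library of the 4 neuron types (log2 fold change 6.25 ± 0.14 SE, edgeR adjusted p = 6.44e-43). Kcnh5, an EAG-type pore, was at 180, 138, 193 and 228 CPM in OPC and 24.9, 33.8, 33.1 and 31.4 CPM in CA3 (log2 fold change 2.51 ± 0.15 SE, edgeR adjusted p = 5.68e-22). Kcnip3 was at 353, 329, 531 and 326 CPM (log2 fold change 3.03 ± 0.09 SE, edgeR adjusted p = 2.05e-36). Each of the 3 was higher in every OPC library than in any neuronal one. Kcnip1 was at 197, 304, 187 and 247 CPM (log2 fold change 3.62 ± 0.15 SE, edgeR adjusted p = 1.58e-30, and 3.0 with the left-out genes returned), below INH in each library. Kcnj16 had 6.09 ± 0.32 (SE).

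Kcnd2 was at 4310, 5134, 4581 and 5569 CPM in OPC, overlapping DG-M (3832, 4786, 4185 and 5342 CPM), whereas its sensor Kcnip4 was at 498, 529, 369 and 470.5 CPM (log2 fold change -4.18 ± 0.29 SE, edgeR adjusted p = 9.76e-20). The OPC libraries were below those of CA1, CA3, DG-M and INH for Kcnip4 but overlapped those of DG-i. Kcnj6, a subunit of the G protein-opened rectifiers, and Kcnh1 were lower (-3.57 ± 0.17 and -4.74 ± 0.3, SE, the latter -5.52 without MF2). OPC held 1 UMI of Kcng3 and 2 of the silent subunit Kcns2 among 1954494, and neurons over OPC came to 21.8 (exact Poisson 95% interval 3.92 to 863) and 8.33 (exact Poisson 95% interval 2.31 to 68.8). The fitted Kcng3 value changed without MF1 (-3.67 to -6.25), and the fitted Kcns2 value with finer clusters (-3.19 to -3.98, and -3.86 without HF2).

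Oligodendrocytes, compared with their progenitors, were lower for 36 and higher for 4 of 58 members, 40 in all, against 32.4% of all genes (12.5% higher, 19.9% lower). The median log2 fold change was -2.78 over the members and -0.09 over all genes. Of 4 Kv1 pores tested, Kcna1 and Kcna6 were higher and Kcna4 was lower (-2.17 ± 0.51, SE). Kcna1, an axonal delayed rectifier, was at 262, 293, 249 and 258 CPM in ODC and 33.2, 32.2, 27.02 and 13.98 CPM in OPC (log2 fold change 3.51 ± 0.19 SE, edgeR adjusted p = 8.57e-24). Kcna6 was at 76.05, 93.6, 109 and 76.4 CPM and 43.7, 27.6, 30.9 and 44.3 CPM (log2 fold change 1.48 ± 0.2 SE, edgeR adjusted p = 2.86e-09). Kcnk13 was at 82.4, 95.7, 90.7 and 43.98 CPM and 13.98, 9.201, 17.4 and 16.3 CPM (log2 fold change 2.64 ± 0.29 SE, edgeR adjusted p = 1.04e-11). The ODC libraries were above all OPC libraries for each of them, and Kcna1 in ODC also exceeded every neuronal library. The fourth was Kcnj2 (2.73 ± 0.54, SE), at 21.6, 18.7, 22.7 and 9.26 CPM in ODC.

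Of the calcium sensors, 4 of 4 Kcnip genes were lower in ODC, as were 4 of 4 Kv3, 3 of 3 Kv4 and 2 of 2 Kv2 pores, against 19.9% of all genes. Lower were also 3 of 3 BK subunits, 2 of 2 Kcnn, 2 of 2 Kcnt, 3 of 4 Kcnq and 3 of 5 Kcnh pores. The counts were 4 of 8 for two-pore subunits, 3 of 6 for inward rectifiers and 1 of 3 for Kv beta subunits. None of 7 silent subunits was lower, but OPC held at most 14 UMIs of any of them, so a fall could hardly be seen. The families were not tested against each other. Kcnip3 was at 3.803, 8.32, 2.83 and 2.31 CPM (log2 fold change -6.46 ± 0.22 SE, edgeR adjusted p = 5.54e-34) and Kcnh5 at 1.27, 4.16, 1.89 and 1.16 CPM (log2 fold change -6.34 ± 0.37 SE, edgeR adjusted p = 3.74e-22, and -5.73 with finer clusters). Kcnip1 had -6.25 ± 0.3 (SE), and -6.87 without MF1. The leak channel Kcnk10 had -6.92 ± 0.33, with -5.63 for finer clusters, -8.13 without HF1 and -8.67 without nuclei over the doublet score. ODC held 1 UMI of Kcnj16 among 3192349, and OPC over ODC came to 172 (exact Poisson 95% interval 30.8 to 6785), with a fitted -6.86 that became -5.68 with finer clusters and -9.07 without HF1.

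Microglia were lower than neurons for 50 of 58 members and higher for 5, 55 in all, against 46.3% of all genes (20% higher, 26.4% lower). Of 8 two-pore subunits tested, 3 were higher and 5 lower. Kcnk6 was at 117, 86.1, 77.1 and 119.6 CPM in MG and at most 1.45 CPM in any library of the 4 neuron types (log2 fold change 7.36 ± 0.3 SE, edgeR adjusted p = 1.77e-28). Kcnk13, which carries the resting K+ conductance of microglia, was at 186, 247, 199 and 247 CPM in MG and 14.3, 10.2, 19.3 and 21.7 CPM in INH (log2 fold change 5.55 ± 0.21 SE, edgeR adjusted p = 9.6e-32, and 4.79 with finer clusters). Kcnk12 was at 81.6, 32.3, 47.4 and 73.3 CPM and 26.3, 20.3, 24.7 and 26.3 CPM in DG-M (log2 fold change 1.6 ± 0.21 SE, edgeR adjusted p = 1.66e-09). These 3 genes were higher in every microglial library than in any neuronal one. The A-type pore Kcnd1 was higher too, at 17.7, 21.5, 29.6 and 30.9 CPM (log2 fold change 2.5 ± 0.35 SE, edgeR adjusted p = 8.88e-09). Kcnj2 was at 30.2, 0, 11.9 and 23.1 CPM (log2 fold change 1.78 ± 0.39 SE, edgeR adjusted p = 6.78e-05), with no UMI in MF2, and lost its call without MF1 (1.12, edgeR adjusted p = 0.0903).

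Kcnh5, Kcns3, Kcnv1 and Kcnk3 had no UMI in microglia and were at least 12.6-fold, 12.9-fold, 6.74-fold and 3.37-fold lower than in neurons by the same limit of 3 counts over the group. Kcnt2 was at 8.87, 0, 17.8 and 34.7 CPM (log2 fold change -5.32 ± 0.21 SE, edgeR adjusted p = 1.18e-31), and -6.52 with finer clusters and -7.54 without nuclei over the doublet score. It was above 0 in 3 of 4 libraries.

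Accessibility at the starts was measured as counts in peaks within 1000 bp of an annotated start, in the same nuclei. For INH against principal neurons 27 of 80 members tested were called (edgeR adjusted p under 0.05 and at least 1.5-fold), against 19.8% of all genes. The count was 27 for CA1 against DG-M (all genes 15.3%), 15 for CA3 against DG-M (13.9%), 19 for CA1 against CA3 (9.32%) and 29 for DG-i against DG-M (18.7%). It was 55 for AST (44%) and 41 for OPC (33.3%) against neurons, 52 for ODC against OPC (24.8%) and 74 for MG against neurons (52.5%). Of the members called in RNA, 60.7% were called in the same direction at the start in INH, 60% in CA1 against DG-M, 42.1% in CA3 against DG-M, 44.8% in CA1 against CA3 and 45.7% in DG-i. The shares over all genes called in RNA were 40.6%, 36.5%, 35.5%, 30.1% and 39.2%. In glia they were 75% of the members in AST, 67.6% in OPC, 92.5% in ODC and 96.4% in MG, against 61%, 50.4%, 48.7% and 63.8% of all genes. Among members called in both RNA and start, 1 moved in opposite directions, Kcnk12 in MG, whose RNA was higher while its start was less accessible (log2 fold change -0.61 ± 0.15 SE, edgeR adjusted p = 0.000155).

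**Figure D3:**
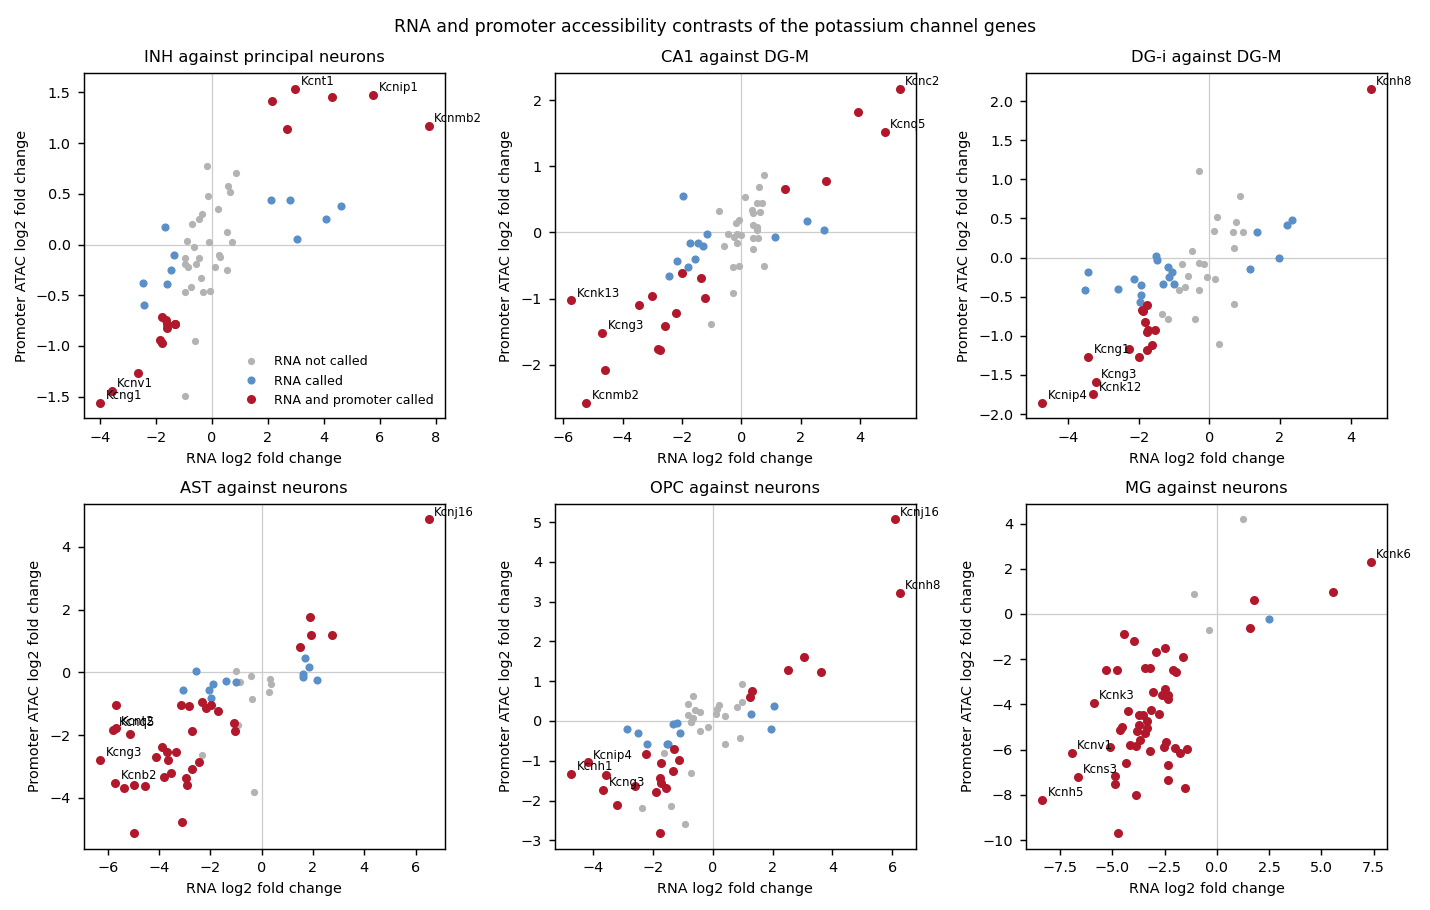
Each point is a member, with the RNA log2 fold change on the horizontal axis and the accessibility log2 fold change at its start on the vertical axis, in 6 contrasts between types. Red points passed both thresholds, blue points the RNA threshold alone and grey points neither RNA threshold, and in MG 53 of the 55 members called in RNA were called in the same direction at the start.

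The printed windows were read again through the peaks that overlap them, scaled to 1000000 peak counts of the type (CPM of peaks). The Kcnmb2 window was at 8.39, 11.1, 9.07 and 9.77 CPM of peaks in INH and 1.09, 0.781, 1.22 and 0.547 in CA1, and also at 11.2, 9.07, 12 and 9.86 in DG-i. INH and DG-i overlapped although their RNA differed. The Kcnc2 window was at 24.5, 12.7, 17.7 and 13.5 CPM of peaks in INH, 13.4, 15.8, 13.9 and 11.6 in CA3 and 5.84, 4.11, 1.68 and 2.98 in DG-M, and the DG-M libraries were below those of INH and CA3. Over INH against principal neurons the Kcnc2 start was not called (log2 fold change 0.25 ± 0.17 SE, edgeR adjusted p = 0.268), whereas CA1 against DG-M was (log2 fold change 2.17 ± 0.21 SE, edgeR adjusted p = 1.05e-15). The Kcnh8 window was at 21.1, 14.8, 20.9 and 19.5 CPM of peaks in OPC, 9.11, 4.95, 10.8 and 6.57 in DG-i and 0 in each MG library.

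The Kcnj16 window was open in astrocytes (16.4, 9.72, 13.9 and 16.8 CPM of peaks) and OPC (12.9, 14.3, 17.1 and 20.5), where the RNA was found. It was open to a similar extent in microglia (28.8, 16.4, 12.8 and 20.5), where Kcnj16 RNA was at 1.77, 0, 0 and 7.72 CPM. Microglia thus had an accessible window with little RNA, and neurons neither, with 0.443 ± 0.191 CPM of peaks (SD) in DG-M. This window lies inside the gene, which begins at chr11:110968033, and other starts of Kcnj16 are not given here. The Kcnk13 window was at 21.5, 14.4, 17.9 and 14.2 CPM of peaks in MG, 13.2, 22.1, 18.7 and 12.7 in ODC and 3.27, 1.82, 3.05 and 5.75 in CA1. It was at 8.77, 8.8, 9.22 and 8.83 in DG-M, 6.77, 11, 9.8 and 3.62 in DG-i, 5.84, 7.59, 9.07 and 6.4 in INH and 4.64, 4.61, 12.8 and 4.62 in OPC. Every MG and ODC library was above the neuronal libraries, and the highest OPC library, HF1, was above ODC of HF2.

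The HF and MF diets were compared within 10 cell classes, the 9 types and all excitatory nuclei (EXC, 4592), with 2 libraries against 2. No member passed the threshold (edgeR adjusted p under 0.05 and at least 1.2-fold) outside microglia. Members called were 0 of 65 in EXC (all genes 0%), 0 of 40 in CA1 (0.00978%), 0 of 51 in CA3 (0%), 0 of 60 in DG-M (0%) and 0 of 36 in DG-i (0%). They were 0 of 47 in INH (0.00944%), 0 of 27 in AST (0%), 0 of 31 in OPC (0.0543%) and 0 of 15 in ODC (0%). At an unadjusted p under 0.05 there were 1 in EXC (all genes 0.971%), 2 in CA1 (2.06%), 5 in CA3 (1.78%), 1 in DG-M (1.77%), 1 in DG-i (1.6%), 3 in INH (2.4%), 0 in AST (2.69%), 0 in OPC (2.53%) and 2 in ODC (2.3%). DESeq2 called no member in these 9 classes either. Median log2 fold changes of the members lay between -0.01 in INH and 0.17 in ODC.

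In CA3, Kcnh7 was at 156, 130, 236 and 182 CPM (log2 fold change 0.62 ± 0.18 SE, unadjusted p = 0.00389, edgeR adjusted p = 1), with both HF libraries above both MF libraries. Kcnmb2 was at 28.1, 24.6, 15.8 and 12.9 CPM (log2 fold change -0.8 ± 0.26 SE, unadjusted p = 0.00911, edgeR adjusted p = 1), with both HF libraries below. In CA1, Kcnd3 was at 20.7, 23.03, 39.3 and 32.1 CPM (log2 fold change 0.77 ± 0.26 SE, unadjusted p = 0.00829, edgeR adjusted p = 1), and HF was again above MF. With the wider CA1 its levels were 113.3, 115.1, 108.2 and 156 CPM, where the diets overlapped, and the log2 fold change was 0.28. The diets did not overlap for 26.7% of all genes in CA3 and 26.8% in CA1. In these fits, which had no replicate term, none of the differences passed the adjustment over all genes. The same held in the other classes. In INH, the Kv1 pore Kcna2 was at 65.1, 50, 42.1 and 27.5 CPM (log2 fold change -0.69 ± 0.25 SE, unadjusted p = 0.0162, edgeR adjusted p = 1) and Kcnd2 at 1169.9, 981, 1299 and 1987 CPM (log2 fold change 0.66 ± 0.26 SE, unadjusted p = 0.0225, edgeR adjusted p = 1). In DG-M, Kcnj11, the pore of ATP-sensitive channels, was at 9.92, 10.1, 5.59 and 5.55 CPM (log2 fold change -0.77 ± 0.32 SE, unadjusted p = 0.0324, edgeR adjusted p = 1). In these 3 cases the diets did not overlap, which was so for 27.4% of all genes in INH and 23.3% in DG-M. In DG-i, Kcnip1 was at 4.74, 4.29, 13 and 13.7 CPM (log2 fold change 1.57 ± 0.6 SE, unadjusted p = 0.019, edgeR adjusted p = 1), also from few UMIs. In AST, the leading member Kcnip4 was at 113, 249.6, 221 and 338 CPM (log2 fold change 0.63 ± 0.35 SE, unadjusted p = 0.088, edgeR adjusted p = 1), and MF2 exceeded HF1. The Kcnip1 value in DG-i was 2.43 without nuclei over the doublet score, and the Kcnip4 value in AST was 1.42 without MF2. In ODC, Kcnb2 was at 3.803, 12.5, 17.9 and 25.5 CPM (log2 fold change 1.59 ± 0.6 SE, unadjusted p = 0.0192, edgeR adjusted p = 1), from few UMIs, and its value was 0.76 without MF1 and 2.54 without MF2.

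Other leading members by unadjusted p showed the same lack of calls. They were Kcna4 in DG-i (log2 fold change 0.57 ± 0.39 SE, unadjusted p = 0.165, edgeR adjusted p = 1), Kcnk13 in DG-M (log2 fold change -0.48 ± 0.28 SE, unadjusted p = 0.101, edgeR adjusted p = 1), Kcnv1 in CA1 (log2 fold change -0.82 ± 0.39 SE, unadjusted p = 0.0473, edgeR adjusted p = 1), Kcnj16 in AST (log2 fold change -0.5 ± 0.29 SE, unadjusted p = 0.105, edgeR adjusted p = 1), Kcna2 in OPC (log2 fold change -0.67 ± 0.39 SE, unadjusted p = 0.0876, edgeR adjusted p = 0.999) and Kcnj3 in ODC (log2 fold change 1.34 ± 0.56 SE, unadjusted p = 0.0303, edgeR adjusted p = 1). The Kcnj3 value was 0.03 with finer clusters and 2.28 without MF1. In EXC the leading members were Kcnip1, at 10.7, 11.03, 14.03 and 14.7 CPM (log2 fold change 0.48 ± 0.2 SE, unadjusted p = 0.0396, edgeR adjusted p = 1), and the ERG-type pore Kcnh2, at 1.53, 1.19, 0.895 and 0.475 CPM (log2 fold change -0.91 ± 0.47 SE, unadjusted p = 0.0797, edgeR adjusted p = 1).

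**Figure D4:**
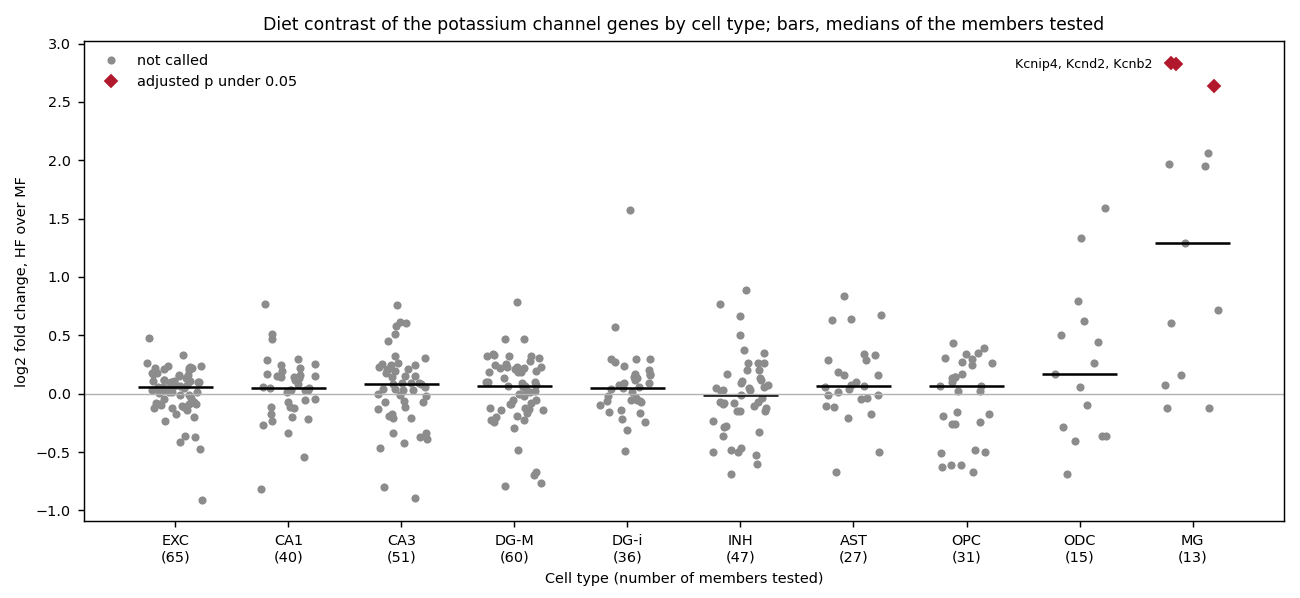
Points are the members tested in each class (numbers in brackets), the vertical axis is the log2 fold change of HF over MF and bars are medians. In 9 classes no member had an edgeR adjusted p under 0.05, and in MG the 3 diamonds are Kcnip4 (2.84), Kcnd2 (2.82) and Kcnb2 (2.64).

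In microglia 3 of 13 members tested were called, all higher in HF, against 1.66% of all genes. At an unadjusted p under 0.05 there were 8 (all genes 5.42%). Kcnip4 was at 78.1, 113, 907 and 374 CPM, Kcnd2 at 31.9, 37.7, 285 and 189 CPM and Kcnb2 at 17.7, 21.5, 175 and 54.02 CPM, with edgeR log2 fold changes of 2.84 ± 0.41, 2.82 ± 0.35 and 2.64 ± 0.55 (SE) and adjusted p of 0.00124, 0.000698 and 0.0189. Both HF libraries were above both MF libraries for each. All 3 are abundant in neurons, and Kcnb2 is named here after its values were seen. Of the 714 microglial nuclei, 12 had a doublet score over 0.05, 2 of 262 in MF1, 2 of 113 in MF2, 5 of 182 in HF1 and 3 of 157 in HF2. Without them Kcnip4 was at 79.7, 111, 93.6 and 99.1 CPM, Kcnd2 at 32.6, 39.0, 45.1 and 57.8 CPM, and no member was called. Kcnb2 was then at 3.62, 0, 24.3 and 4.13 CPM, from 2, 0, 7 and 1 UMIs. The diets overlapped for Kcnip4. HF remained above MF for Kcnd2, from 18, 7, 13 and 14 UMIs, with a log2 fold change of 0.55 that was not called. The gap between the diets was smaller without these nuclei for Kcnip4 and Kcnd2, while Kcnb2 was left with too few UMIs to compare. The members summed to 1166, 1151, 3101 and 2149 CPM with these nuclei and to 1080, 1130, 1207 and 1421 CPM without them. The summed level of the 8 neuronal genes was 1217, 1103, 1933 and 1100 CPM with them and 1154, 1102, 1363 and 847 CPM without. HF1 also stood apart in the 6 choroid plexus markers, all above 0 there, led by Ttr, which encodes transthyretin. They summed to 37.3, 21.5, 3735 and 23.2 CPM with these nuclei and to 38.0, 16.7, 235.8 and 24.8 CPM without them, and their part in the result was not tested. HF2 lay within the range of the MF libraries with all nuclei. With either other clustering no member was called. Without HF1, which left HF2 alone for the HF diet, the Kcnip4 value was 2.06, against 2.84 with all libraries. Kcnk13, Kcnk6 and Kcnma1, which were not called, are given as values. Kcnk13 was at 186, 247, 199 and 247 CPM (log2 fold change 0.08 ± 0.28 SE, unadjusted p = 0.792, edgeR adjusted p = 1) and Kcnk6 at 117, 86.1, 77.1 and 119.6 CPM (log2 fold change -0.12 ± 0.34 SE, unadjusted p = 0.725, edgeR adjusted p = 1). Kcnma1 was at 216, 209.8, 308 and 394 CPM (log2 fold change 0.71 ± 0.27 SE, unadjusted p = 0.018, edgeR adjusted p = 0.531), with both HF libraries above both MF libraries, as for 31% of all genes. Without the nuclei over the doublet score Kcnma1 was at 215.6, 211.5, 194.2 and 371.8 CPM, and HF1 was below both MF libraries.

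**Figure D5:**
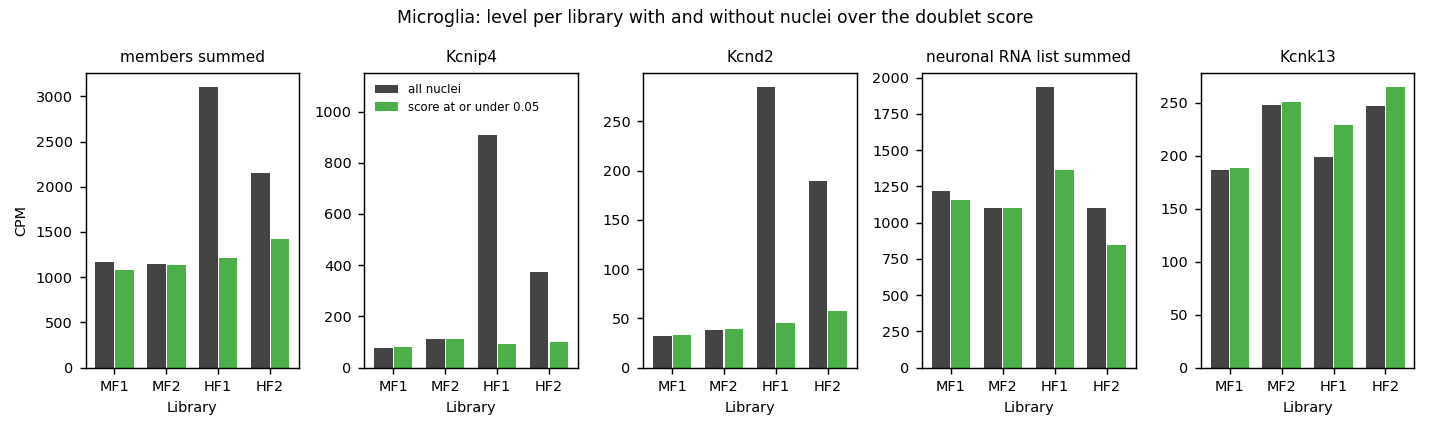
Bars give the microglial CPM of each library for the members summed, Kcnip4, Kcnd2, the 8 neuronal genes summed and Kcnk13, with all nuclei (dark) and without the 12 nuclei over the doublet score (green), on linear axes from 0. Kcnip4 in HF1 dropped from 907 to 93.6 CPM and in HF2 from 374 to 99.1 CPM, while Kcnk13 stayed between 186 and 264 CPM in every bar.

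The diet response was also compared between DG-M and CA1 with an interaction term. None of 56 members was called by edgeR (all genes 0.0322%) or by DESeq2, and 1 had an unadjusted p under 0.05 (all genes 4.42%). The leading member Kcnv1 had a difference of 1.19 on the log2 scale (edgeR adjusted p = 0.825). Kcna1 followed with -0.61 (edgeR adjusted p = 1).

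Partner genes of the channels were read from a list of 30, which holds the Kv4 partners Dpp6 and Dpp10, the Kv1-clustering Cntnap2 and scaffolds, among others. Of 24 tested, 6 were called in INH against principal neurons (all genes 18.8%), 7 in CA1 against DG-M (16.5%), 8 in CA3 against DG-M (14.3%), 3 in CA1 against CA3 (11.9%) and 8 in DG-i (19.8%). In glia 14 were called in AST (all genes 37.1%), 14 in OPC (26%), 13 in ODC (32.4%) and 18 in MG (46.3%). Dpp10 is named here after its values were seen, and its values are log2 fold changes. It was higher in INH than in principal neurons (4.31 ± 0.18, SE) and in OPC than in neurons (2.15 ± 0.2), and lower in ODC than in OPC (-5.42 ± 0.43). In the diet comparison of microglia 4 of 16 partner genes were called (all genes 1.66%), among them Ank3, Cntnap2 and Dlg2. Without nuclei over the doublet score, Dlg2 changed from 3.33 to 0.83 and Ank3 from 1.55 to -0.24, and neither was called. Cntnap2 changed from 2.69 to 1.38 with finer clusters and to 1.39 with the left-out genes returned, and was called in neither. Ank3 also missed the threshold with either other clustering, at 0.6 and -0.33. With DESeq2 (1.58) and without MF1 (1.83), MF2 (1.43) or HF1 (1.36) its call was lost at folds near that of 1.55. In CA1 the diet call was Dpp10, at 6.59, 25.9, 154 and 50.3 CPM (log2 fold change 2.8 ± 0.45 SE, unadjusted p = 4.71e-06, edgeR adjusted p = 0.0482). HF1 was the highest library, and the Dpp10 call was lost with DESeq2 (2.65, adjusted p = 1) and with either other clustering (1.2 with finer clusters and 0.98 with the left-out genes returned), while its value was 1.88 without HF1, 1.95 without MF1 and 4.0 without MF2.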

How the data were processed

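The authors deposited counts from Cell Ranger ARC 2.0.1 on mm10, as UMI counts per gene and ATAC counts per peak, with different peaks in each library. Nuclei with 500 to 7000 genes, at most 2% mitochondrial UMIs and 1000 to 70000 ATAC counts were kept. Clusters and sub-clusters with a median Scrublet score over 0.05 were set aside as mixed, since the automatic call marked 0% of HF2. Cell classes were rebuilt with Scanpy 1.11.5 (3000 variable genes, 20 components, Leiden resolution 0.8). Counts were summed per library and type and tested with edgeR 4.0.16 (TMM, filterByExpr, quasi-likelihood test, two-sided, Benjamini-Hochberg over all genes), with library as a term between types and DESeq2 1.42.0 as an alternative. ATAC counts were summed over peaks within 1000 bp of annotated starts. RNA totals were 39223075 to 47460174 UMIs per library. The members, lists and tests were chosen with earlier results of these data known. Named members were the 5 called with the largest fold in each direction per contrast (at least 100 UMIs), the 2 with the smallest p per diet comparison and the most abundant of each main family. Others were chosen after their values were seen, and some genes within the rule are not reported here. Scripts were tested on simulated data.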

Additional observations from a re-analysis of the deposited data

Results flagged for a closer look

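The response of Dpp10, a partner of Kv4 pores, to the diet differed between DG-M and CA1. The interaction was -2.55 on the log2 scale (edgeR adjusted p = 7.83e-08), with 36.4, 70.7, 42.3 and 74.8 CPM in DG-M and 6.59, 25.9, 154 and 50.3 CPM in CA1. In DG-M the diets overlapped, and in CA1 both HF libraries were above both MF libraries. Dpp10 was named after its values were seen. DESeq2 gave -2.54 with an adjusted p of 1, and edgeR without HF1 gave -1.27 with an adjusted p of 1. The interaction was not run with the other clusterings, under which Dpp10 was not called for diet in CA1 (1.2 with finer clusters and 0.98 with the left-out genes returned). The value was -3.20 without MF2 and -3.63 without HF2.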

How the results depend on the processing

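Of 329 alternative counts of called members, 318 stayed within 1.5 times the main count and 11 did not. Of the alternatives for single genes, 1634 kept direction and side of the threshold, 31 lost the call, 1 gained it and 6 turned direction. The counts of members in this paragraph are given without the share over all genes at each setting. Diet in MG called 6 members with no low-count filter, 0 without nuclei over the doublet score, 0 at the higher resolution and 0 with the left-out genes returned. In MG with those genes returned the values were -1.13 for Kcnd2, -1.45 for Kcnip4, -0.33 for Ank3 and -0.67 for Dlg2, and Ank3 was -0.24 without nuclei over the doublet score. The Kcna1 interaction ranged from -1.31 to 0.0835 with 1 library left out. With no fold minimum, 47 members were called for INH against principal neurons, 34 for CA3 against DG-M and 44 for CA1 against CA3. Dropping the minimum can only raise the calls over all genes too, so these counts do not compare with the shares given above. ATAC calls of CA1 against CA3 ranged from 12 to 18 with 1 library left out. Beyond the setting changed in each case, the cause of these changes was not tested.

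Labels share replicate numbers but do not say that a number marks a shared batch. With a replicate block, diet in CA3 called 2 members instead of 0 (Kcnh7 0.61, edgeR adjusted p = 0.0169), and MG called 4 instead of 3, while the partner gene Ank3 lost its call in MG (edgeR adjusted p = 0.0515). The shares of all genes called with the block are not given here. Same-numbered libraries had correlations of deviations of 0.016 in CA1 to 0.25 in EXC, and with 2 pairs the numbers cannot be taken to pair the samples. The block changed no other diet count of members, and without library as a term the counts between types moved by at most 2. Scaling by total UMIs alone shifted the median of all genes by over 0.1 in the 9 contrasts of the main types, from -0.22 in ODC against OPC to 0.49 in MG, and by 0.066 between the interneuron groups. Few libraries per diet and the UMIs of rare types limit what could be detected.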

Other observations

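Small clusters outside the 9 types also held member RNA. In the Cajal-Retzius cluster Kcnh7 was at 4950, 4844, 3571 and 4927 CPM and Kcnb2 at 2872, 2332, 2222 and 3196 CPM. In the vascular cluster Kcnj8, a pore of ATP-sensitive channels, had a mean of 113.8 CPM from 25 UMIs.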
